A study of Medicago ruthenica with 9 samples.

Results

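The miRNA table of Medicago ruthenica leaves held 62 predicted small RNAs whose names begin with PC and carry no miRBase name. They do not include PC-3p-54_81480, the most abundant PC name, which was set apart and is used only as a hairpin partner. They were taken by the start of their names, as 62 of the 595 names of the table, and 532 of the other names carried a miRBase name. Leaves came from plants 4 weeks old at the start of treatment, in 3 groups of 3 biological replicates. The control (CK) received water at intervals of 3 days, the drought group (DS) had none for 15 days, and rewatered plants (RW) had the same 15 days of drought and were sampled 2 days after full rewatering. Leaves of CK and DS were collected on day 15, so that RW had no control of its own sampling day. All plants were of the same cultivar and grew in pots of vermiculite and quartz sand without added nutrients. The sources used here do not say how many plants made up a leaf sample.

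A plant miRNA is cut by a Dicer-like enzyme from the stem of a hairpin transcript, as a duplex of a 5p and a 3p strand with short 3′ overhangs, and the strand that stays in Argonaute guides the cleavage of mRNAs. Canonical miRNAs of 21 nt mostly begin with U, the 5′ base that Argonaute 1 prefers. Small RNAs of 24 nt are mostly siRNAs of repeats and transposons that begin with A, the base preferred by Argonaute 4, although some hairpins give miRNAs of this length too. A predicted name thus rests on its reads, its transcript and its fold, and the strand opposite to it is part of what makes the prediction.

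The 62 names had 62 different sequences, from 50 assembled transcripts. Sequences are printed as the table gives them, 5′ to 3′ and with T for U. PC-5p-400_9674 was the most abundant of the 62 and lay on the same transcript as PC-3p-54_81480, so both strands of this hairpin are shown, and the strands of PC-5p-9773_636 and PC-3p-905_4408 show the other abundant hairpin. In these 4 lines capitals mark the bases that RNAduplex paired when the mature strands alone were folded against each other.
PC-5p-400_9674: TCTTTAATCTCCGATCCCaaa
PC-3p-54_81480: cGGGATCGGAGATTAGAGAat
PC-5p-9773_636: TGAATTTAGAGCTAGAGGCAa
PC-3p-905_4408: tTGCTTCTAGCTCTAAATTCA
The first duplex had 18 base pairs and 3′ overhangs of 2 nt on both strands. The second had 20 base pairs and an overhang of 0 nt on both strands.

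Although none of the 62 shared its sequence with a matched name, 10 of them lay on a transcript that also gave a matched name. For 4 transcripts of well-known families the strands are shown, the PC name first and the matched strand after it, and capitals again mark the paired bases.
PC-5p-21436_288: ataGGGcCGACTTGAGAcCACATG
nta-miR398_L+2R-2: TATGTGtTCTCAGGTCGCCCc
PC-3p-97186_44: cAGATCATGgTGGCAGTTTCA
lja-miR167a_R+1: TGAAGCTGCCAgCATGATCTt
PC-5p-48480_111: GGAtatcGGaGGGTCGGTAAaa
mtr-miR2118: TTACCGATtCCaCCcatTCCta
PC-5p-173814_19: tGGATACCTACCATGTgactc
mtr-miR1510b-3p_1ss8CA: ACATGGTAGGTATCCctggaa
PC-5p-21436_288 paired with a strand of the miR398 family, whose members silence copper/zinc superoxide dismutases, over 19 bases. PC-3p-97186_44 formed 19 pairs with a strand of miR167, which targets auxin response factors. PC-5p-48480_111 and PC-5p-173814_19 formed 15 pairs each with strands of miR2118 and miR1510, families that target NBS-LRR disease resistance genes in legumes. Of these 4 duplexes only that with miR2118 had 3′ overhangs of 2 nt on both strands.

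In all, 36 pairs of a PC name and another name of the same transcript were folded, and 20 of them formed 15 or more base pairs. These 20 pairs took in 23 of the 62 names. Overhangs of 2 nt on both strands were found in 3 of the 20, among them PC-5p-400_9674 with PC-3p-54_81480 and PC-5p-48480_111 with mtr-miR2118. Among pairs of 24 nt, PC-5p-33566_173 and PC-3p-288160_9 formed 20 base pairs, PC-5p-354100_7 and PC-3p-245711_11 formed 19, and PC-5p-109732_37 and PC-3p-39042_145, like PC-3p-446078_6 and PC-5p-378933_6, formed 18. Their 3′ overhangs were -3, 0, -6 and -6 nt in this order, on both strands, where a negative value is a recessed 3′ end. For the PC names outside these 23, no name of the same transcript formed 15 or more base pairs.

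By length, 39 of the 62 names (62.9%) were of 24 nt, 19 (30.6%) of 21 nt, 3 of 22 nt and 1 of 23 nt. Of the 532 matched names, 237 (44.5%) were of 24 nt and 164 (30.8%) of 21 nt, and these ran from 18 to 25 nt. The arms were near balance, with 33 names of the 5p arm and 29 of the 3p arm. Of the 24 nt names 20 were 5p and 19 were 3p, and of the 21 nt names 10 were 5p and 9 were 3p.

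**Figure D1:**
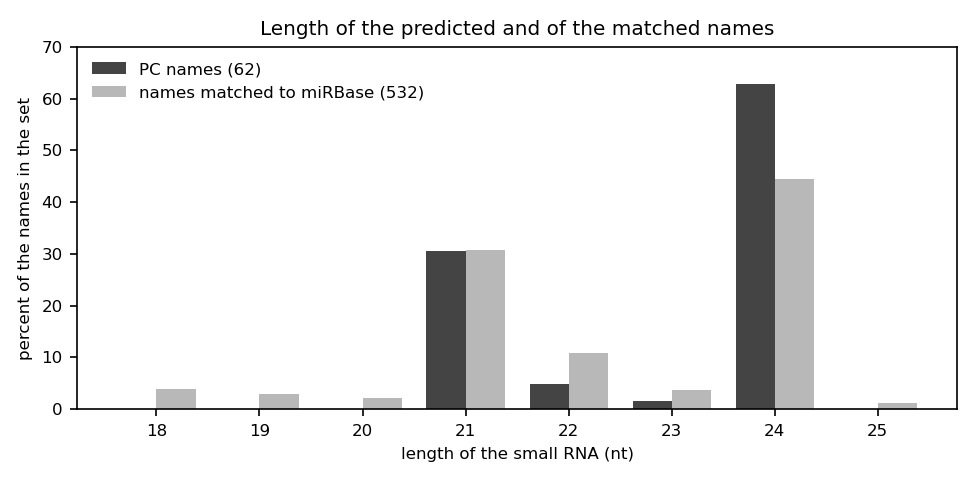
Percent of names (y axis) at each length in nt (x axis) for the 62 PC names and the 532 names matched to miRBase. The PC names fall on 21 to 24 nt, with 62.9% at 24 nt against 44.5% of the matched names.

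The 5′ base went with the length. Of the 19 PC names of 21 nt, 16 began with T (84.2%), 2 with C, 1 with G and 0 with A, while 109 of the 164 matched names of that length (66.5%) began with T. Of the 39 names of 24 nt, 27 began with A (69.2%), against 141 of 237 matched names (59.5%). Mean GC content was 40.9% in the 21 nt PC names and 47.7% in the matched names of that length, and 43.6% and 43.3% at 24 nt. Names of overlapping sequence are counted singly here, and no test was made between the sets.

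The seed, bases 2 to 8, took 59 different forms in the 62 names. In the following lines capitals mark the seed. The first 6 names are shown because they share a seed in pairs, and the last 6 because their levels are described below.
PC-5p-33566_173: aACACTCTctctagcactcactct
PC-5p-57478_89: aACACTCTcttttcaacactcact
PC-3p-288160_9: aAGAGAGTgagtattagagagagt
PC-3p-294906_8: aAGAGAGTgagtgttagagagagt
PC-3p-83362_54: aTGTGTCAgtgtcgtgtcggtgtt
PC-3p-168578_19: aTGTGTCAgtgttgtgtctggtgt
PC-3p-78936_58: tTTCCCTAgataccattattg
PC-5p-81557_56: aTGGAAGAatggtgggtagtttac
PC-3p-102950_40: tCTATACTagttgacattatc
PC-5p-19253_324: tTGGCACCaatcaaagttatttgt
PC-3p-15383_407: aAATACATtgttttgattgggcca
PC-5p-39746_142: tCTTTTCCattcgaccattatc
All 6 names that shared a seed with another PC name were of 24 nt and began with A. A further 9 names shared the seed of a matched name. Overlap with another PC name over at least 16 bases with at most 2 mismatches was found for 12 names, and with a matched name for 7. PC-3p-288160_9 and PC-3p-294906_8 differed at 1 of 24 positions, PC-5p-27381_220 and PC-5p-282676_9 at 2 of 21, and PC-3p-10861_575 shared 16 bases with PC-3p-233392_12. PC-5p-357414_7 overlapped PC-5p-69379_70 over 17 bases with 2 mismatches. PC-3p-106541_38 shared 17 bases with PC-3p-15383_407, and PC-5p-35690_161 matched PC-5p-400_9674 over 19 bases with 2 mismatches. PC-3p-83362_54, PC-5p-122516_31 and PC-3p-270481_10 overlapped names of the miR2586 family, PC-5p-354100_7 and PC-3p-245711_11 names of miR5287, PC-5p-19253_324 names of miR5753, and PC-3p-39042_145 a name of miR5205. Reads of such near-identical sequences may have been split between names, and their levels are uncertain to that extent.

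The levels are normalized counts, which the authors made from the reads of each library. The values of a library summed to 1237467 to 1718279, but the libraries differed in how low a value they listed. Low values lay on whole multiples of 1 step per library (98.6% or more of them within 0.05 of a step). Counted in pairs of steps, which measures the depth of a library relative to the others, the sums were 1996312 to 2880862 in CK, 1015475 to 1612123 in RW and 790463 to 884594 in DS. CK libraries listed no value above 0 that was smaller than 0.652 to 1.55, RW libraries none smaller than 2.30 to 3.09, and DS libraries none smaller than 3.94 to 4.21. A PC name listed at 0 in DS could therefore hold a level that CK libraries listed. Leaves were sampled whole, and fewer cells of a type and less RNA per cell cannot be told apart. Names of 5 rRNA- or tRNA-fragment-like families, a sign of RNA quality, held 0.489 to 0.627% of the listed values in CK, 1.11 to 2.38% in DS, against 1.85 to 2.41% in RW, and their part in the results was not tested.

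The 62 names together held 0.150 to 0.290% of the listed values of a library. PC-5p-400_9674 made up 48.4 to 74.5% of that sum, the 2 highest names 58.0 to 80.0%, and the 6 highest 77.1 to 90.0%, while 34 names had a mean below 5 normalized counts. PC-5p-400_9674 ranked 23rd of the 595 names by its mean level. Every one of the 9 libraries listed 11 of the 62 names above 0, and another 11 were listed by a single library. Those listed by every library were 5 names of 21 nt, 4 of 24 nt and 2 of 22 nt.

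PC-5p-400_9674, the 5p strand of the hairpin with PC-3p-54_81480, was at 2721, 2314 and 1653 normalized counts in CK, 1785, 1491 and 2485 in DS, and 943, 1488 and 1317 in RW. DS overlapped CK, and all RW libraries lay below all CK and all DS libraries. The fitted difference RW vs. CK was -0.83 ± 0.29 (SE) on the scale of log2 (value + 1), with an unadjusted p below 0.05 and a limma adjusted p of 0.163, which did not pass. Its partner PC-3p-54_81480 was at 10234 to 10420 in CK, 9458 to 14473 in DS, against 2991 to 5852 in RW, and passed in DS vs. RW (log2 difference 1.42 ± 0.27 (SE), limma adjusted p = 0.0175) and in RW vs. CK (-1.25 ± 0.27, limma adjusted p = 0.0230). The ratio of the 5p to the 3p strand was 0.261, 0.224 and 0.162 in CK, 0.156, 0.158 and 0.172 in DS, and 0.203, 0.498 and 0.225 in RW. These ratios overlapped between CK and both other groups. DS lay below RW in every library, at the smallest p that 3 against 3 libraries allow (exact permutation test, 2-sided, p = 0.1, and 0.36 adjusted over 9 tests of 3 pairs of a 5p and a 3p name).

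PC-3p-905_4408 was the next in level, at 704, 323 and 333 in CK, 390, 306 and 184 in DS, and 187, 309 and 246 in RW. RW lay below CK in every library, with a log2 difference of -0.80 ± 0.40 (SE) and a limma adjusted p of 0.370. The strand opposite to it, PC-5p-9773_636, was at 90.8, 51.8 and 85.3 in CK, 58.3, 27.8 and 22.3 in DS, and 11.97, 52.2 and 40.7 in RW, and its groups overlapped. The 5p to 3p ratio of this hairpin was 0.129 to 0.256 in CK, 0.0909 to 0.149 in DS, against 0.0639 to 0.169 in RW. In both abundant hairpins the 3p strand was thus the higher in all 9 libraries.

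The next names of 21 nt were PC-3p-13773_457, PC-5p-27381_220 and PC-5p-35690_161. PC-3p-13773_457 was at 74.6, 25.4 and 50.3 in CK, 42.6, 28.6 and 87.5 in DS, and 56.1, 8.53 and 22.2 in RW, with overlap between all groups. Its log2 difference RW vs. CK was -1.01 ± 0.70 (SE), with a limma adjusted p of 0.572. PC-5p-27381_220 ranged from 12.3 to 43.7 over the 9 libraries with no order of the groups. PC-5p-35690_161, which resembles PC-5p-400_9674, was at 16.1 to 21.4 in CK and 16.0 to 21.3 in RW, and in DS at 0, 15.2 and 16.1.

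The highest names of 24 nt were far lower than PC-5p-400_9674. PC-3p-15383_407 was at 139, 161 and 157 in CK, 232, 180 and 134 in DS, and 169, 137 and 190 in RW. Its groups overlapped in every comparison, with log2 differences of 0.22, 0.11 and 0.11 (SE 0.31) in DS vs. CK, RW vs. CK and DS vs. RW, respectively. PC-5p-19253_324, from the same transcript, was at 77.2, 104 and 92.6 in CK, 61.5, 77.5 and 87.5 in DS, and 133, 175 and 122 in RW, so that every RW library was above every other library. The difference DS vs. RW was -0.92 ± 0.33 (SE, log2), with a limma adjusted p of 0.221. PC-3p-39042_145 was at 26.9 to 45.7 in CK, 23.2 to 52.8 in DS, against 28.5 to 61.3 in RW, and PC-5p-33566_173 at 16.1 to 42.3, 10.7 to 25.3 and 18.5 to 28.5. Neither showed an order of the groups. PC-5p-57478_89, which has the seed of PC-5p-33566_173, was at 11.2 to 37.6 in CK and was listed at 0 in 1 DS and 1 RW library.

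Of the 4 names of other lengths, 3 were of 22 nt. PC-3p-10861_575 was at 86.6, 67.0 and 36.2 in CK, 53.6, 42.1 and 89.3 in DS, and 58.9, 261 and 46.9 in RW, where the second library stood apart. PC-5p-39746_142 was at 5.22, 28.5 and 9.56 in CK, 25.2, 42.1 and 30.3 in DS, and 19.3, 16.0 and 18.5 in RW. Every DS library of PC-5p-39746_142 was above every RW library, and the difference that gave an unadjusted p below 0.05 was DS vs. CK (1.40 ± 0.60 (SE, log2), limma adjusted p = 0.236). The only name of 23 nt, PC-5p-462184_5, was listed in 1 library, RW replicate 2, at 5.33.

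**Figure D2:**
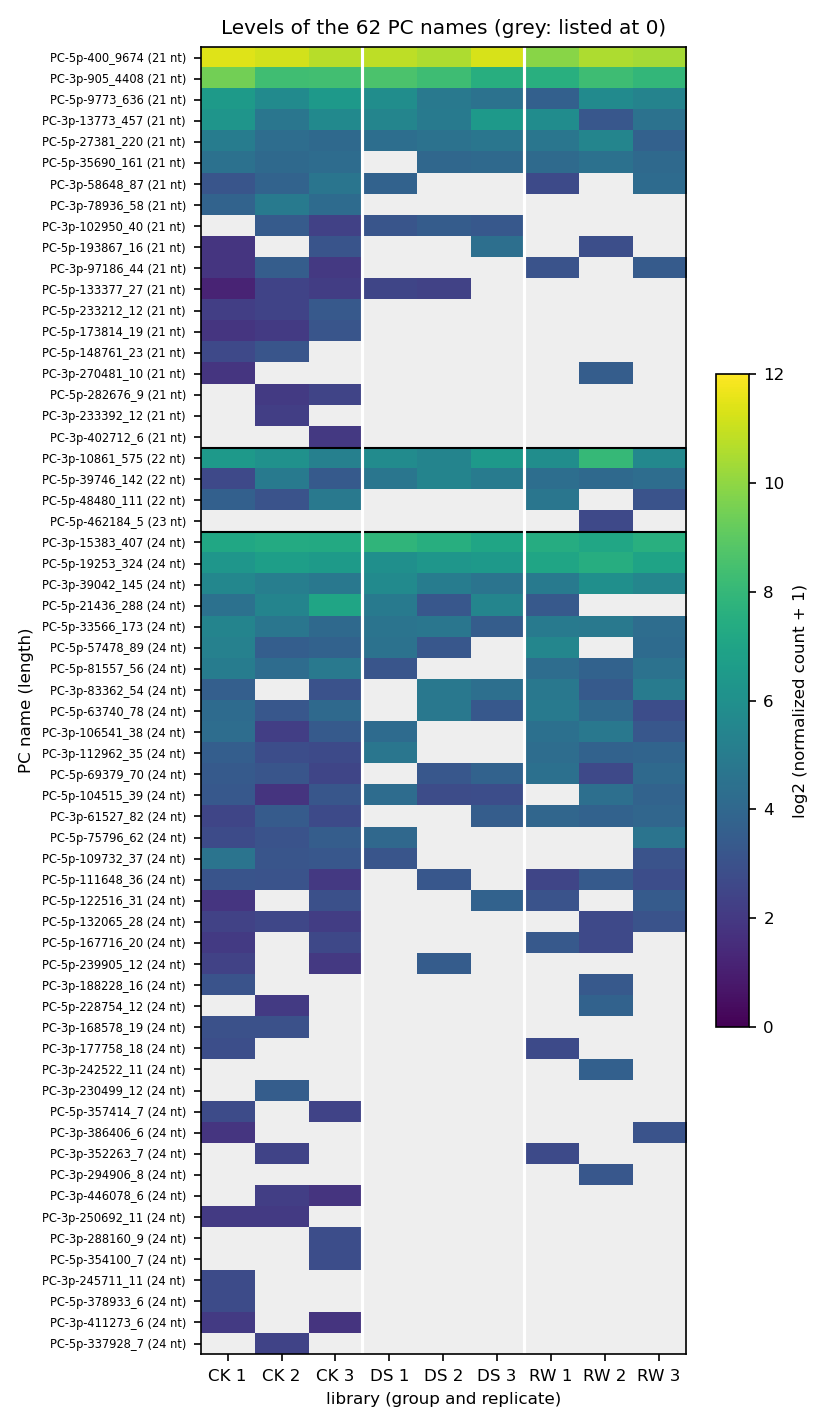
Level of each of the 62 PC names (rows, by length and then by mean) in the 9 libraries (columns), as log2 (normalized count + 1), with grey for values listed at 0. The upper rows of the 21 nt and of the 24 nt block are above 0 in every library, and most of the grey lies under DS and RW.

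How many of the names were listed at all differed between the groups. Above 0 were 48, 43 and 45 of the 62 names in the CK libraries, 22, 22 and 21 in DS, and 29, 30 and 30 in RW. No library of one group overlapped another group, and each of the 3 pairs of groups reached the smallest possible p (exact permutation test, 2-sided, p = 0.1, and 0.3 adjusted over 18 tests). Matched names were above 0 in 379 to 440 of 532 cases in CK, 261 to 282 in DS, against 316 to 346 in RW. The mean number in DS was 47.8% of that in CK for the PC names and 65.7% for the matched names, and in RW 65.4% and 80.9%.

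As the order CK, RW, DS is also that of the smallest listed value, the names were counted again from 4.21 upward. Over all names, this was the highest of the smallest values that the libraries listed. Then 35, 35 and 36 PC names were counted in CK, and 22, 22 and 21 in DS and 29, 30 and 30 in RW as before. The mean in DS was 61.3% of that in CK for the PC names and 89.7% for the matched names, and in RW 84.0% and 101%. Among the PC names alone, the smallest values above 0 were higher, at 4.21 to 6.25 in DS libraries and 4.60 to 6.17 in RW libraries. A count from 4.21 therefore still takes in CK values lower than those that some DS and RW libraries listed for PC names. No count from 6.25 upward was made. The difference between the sets was not tested, and the part of depth in these counts was not tested beyond this level.

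By length, 15, 16 and 16 of the 19 names of 21 nt were above 0 in CK, and 8 in each of the 3 DS and the 3 RW libraries. From 4.21 upward 9, 13 and 12 were counted in CK and again 8 in the others. Of the 39 names of 24 nt, 30, 24 and 26 were above 0 in CK, 12, 12 and 11 in DS, and 18, 19 and 19 in RW, and from 4.21 upward 23, 19 and 21 in CK with DS and RW as before. At 24 nt the RW libraries thus lay between DS and CK, and from 4.21 upward they reached the lowest CK library. Over all libraries of a group, 10 names of 21 nt were above 0 in DS and 10 in RW, and 8 were above 0 in both.

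Read by name, 28 of the 62 were above 0 in at least 1 library of every group, 18 in CK alone, 3 in RW alone and 0 in DS alone. A further 10 were above 0 in CK and RW and at 0 in all DS libraries, and 3 in CK and DS and at 0 in all RW libraries. Of the 18 names of CK alone, 7 were of 21 nt and 11 of 24 nt, and 8 of them were listed in a single library. The 3 names of RW alone were PC-3p-242522_11, PC-3p-294906_8 and PC-5p-462184_5, each listed in RW replicate 2 only, at 11.7, 8.53 and 5.33. DS libraries listed no value below 3.94 and RW libraries none below 2.30, while CK libraries listed lower ones. A name of CK alone may thus have been present in DS or RW below what those libraries listed. Matched names were not counted by these patterns, so no share of all names stands beside them.

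Above 0 in all CK libraries and at 0 in all DS libraries were 6 names, 4 of them of 21 nt. PC-3p-78936_58 had the highest CK values of the 6 and was at 0 in RW too. PC-5p-48480_111, from the miR2118 transcript, was at 12.001, 7.44 and 28.2 in CK, 0 in DS, and 24.9, 0 and 7.40 in RW. PC-3p-97186_44, from the miR167 transcript, was at 2.61, 10.5 and 3.02 in CK, 0 in DS, and 7.36, 0 and 9.87 in RW. PC-5p-132065_28 was at 3.52 to 4.96 in CK, and at 0, 5.33 and 7.40 in RW. The 6 were completed by PC-5p-233212_12, at 3.65, 4.34 and 9.06 in CK, and PC-5p-173814_19 of the miR1510 transcript, at 2.61, 3.10 and 8.05. Neither was above 0 in any DS or RW library. The DS libraries listed nothing below 3.94, and of the 6 names only PC-3p-78936_58 and PC-5p-48480_111 were above that level in all CK libraries. How many matched names had this pattern was not counted, so the 6 are not shown to be a trait of the PC names.

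At 0 in all RW libraries and above 0 in all of CK were PC-3p-78936_58, PC-5p-233212_12, PC-5p-173814_19 and PC-5p-133377_27, all of 21 nt. PC-5p-133377_27 was at 1.30 to 4.34 in CK and at 4.73, 4.21 and 0 in DS. PC-3p-102950_40, from the transcript of a miR2612 name, was the only one above 0 in all DS libraries and at 0 in all RW libraries. It was at 0, 9.92 and 4.02 in CK, and at 7.88, 10.1 and 8.93 in DS. Matched names were not counted by these patterns either. No fold is given against a group listed at 0. For PC-3p-102950_40 the limma adjusted p of DS vs. RW was 0.122, which did not pass.

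As a share of all listed values, the names of 21 nt summed to 0.245, 0.229 and 0.157% in CK, 0.181, 0.128 and 0.202% in DS, and 0.0962, 0.113 and 0.134% in RW. RW was below CK in every library and overlapped DS. The exact permutation test (2-sided) gave p = 0.1 for RW vs. CK, the smallest that it can give, 0.3 for DS vs. CK and 0.2 for DS vs. RW. The names of 24 nt summed to 0.0381, 0.0401 and 0.0408% in CK, 0.0402, 0.0281 and 0.0261% in DS, and 0.0456, 0.0337 and 0.0462% in RW. The groups overlapped, with exact permutation p of 0.3 for DS vs. CK, 0.2 for DS vs. RW and 0.6 for RW vs. CK.

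Without PC-5p-400_9674, a split chosen after seeing the data, the 21 nt names summed to 0.0410 to 0.0641% in CK, 0.0257 to 0.0418% in DS, against 0.0238 to 0.0291% in RW, with RW again below CK in every library. The 5p names without it summed to 0.0322 to 0.0385% in CK, 0.0195 to 0.0230% in DS, against 0.0253 to 0.0309% in RW, with no overlap between the groups (exact permutation test, 2-sided, p = 0.1 for each pair of groups). With PC-5p-400_9674 the 5p names summed to 0.154 to 0.219%, 0.120 to 0.197% and 0.103 to 0.134%, and DS vs. RW had the opposite sign. The 3p names summed to 0.0485 to 0.0769% in CK, 0.0395 to 0.0652% in DS, against 0.0464 to 0.0519% in RW, and overlapped in every pair of groups. Adjusted over the 18 tests of such sums and counts, the smallest p was 0.3.

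**Figure D3:**
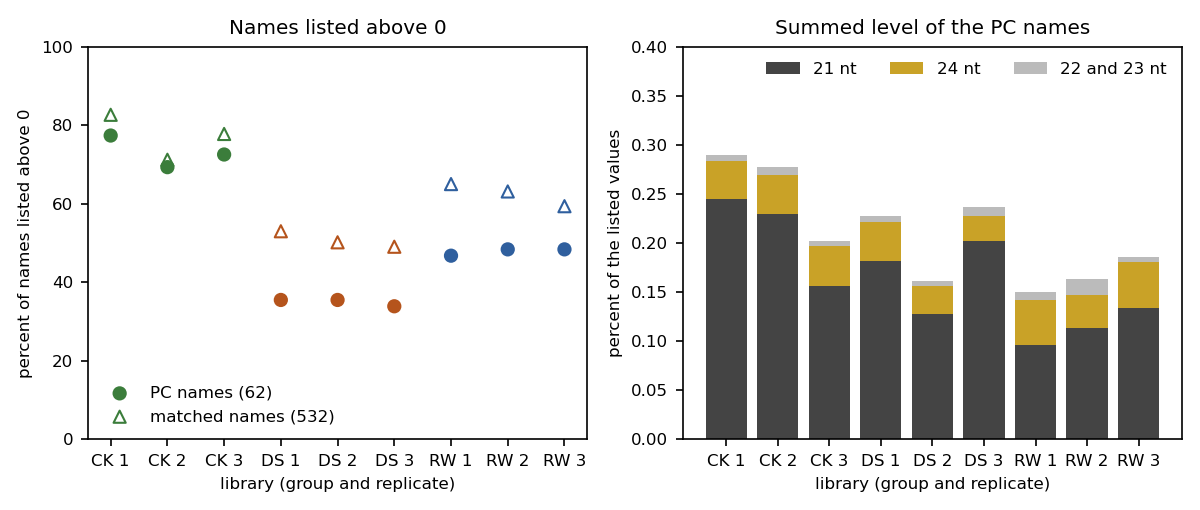
Left, percent of the 62 PC names (filled circles) and of the 532 matched names (open triangles) listed above 0 in each library. Right, summed level of the PC names in each library as a percent of its listed values, stacked by length. The DS libraries list 21 or 22 PC names and the CK libraries 43 to 48, while the sums of DS (0.162 to 0.236%) overlap those of CK (0.203 to 0.290%).

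Of the 62 names, 33 had at least 5 normalized counts in at least 3 libraries and entered the limma fit of all 339 such names of the table. They were 11 of the 19 names of 21 nt, 19 of the 39 of 24 nt, and the 3 of 22 nt. The 29 names left out had no value above 12.8. Of the 33, 28 reached 5 in at least 1 library of every group, 4 in 2 groups, and 1, PC-3p-78936_58, in CK alone, so that the filter fixed the direction of its difference from the other groups. Of the 4, PC-5p-48480_111, PC-3p-97186_44 and PC-5p-167716_20 were at 0 in all DS libraries, and PC-3p-102950_40 was at 0 in all RW libraries. The direction of their differences from that group was fixed in the same way. Counts below that hold these names are to that extent no support for a difference.

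In DS vs. CK, limma called 0 of the 33 names higher and 2 lower at an adjusted p below 0.05. Over all 339 names 2.06% were called higher and 3.24% lower, and 2 of 33 is 6.06%. The 2 include PC-3p-78936_58, whose direction the filter had fixed, so that this share is no support for a difference between the PC names and all names. The median log2 difference was -1.10 over the 33 names and -0.36 over all 339. It was -0.59 for the 21 nt names, with -0.32 for the matched names of that length, and -1.15 for the 24 nt names, with -0.70. DS was below CK without overlap for 6 of the 33 and above it for 0, where all tested names had 18.3% and 9.73%. Values listed at 0 enter these medians as 0, and the part of the higher lowest value of DS in them was not tested.

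The called names were PC-3p-78936_58 and PC-5p-81557_56. PC-3p-78936_58, of 21 nt, was at 13.0, 28.5 and 17.1 in CK and listed at 0 in all 3 DS and all 3 RW libraries. Its limma adjusted p was 0.0139 in DS vs. CK and 0.0110 in RW vs. CK, but as it had met the filter through CK alone these values are no support for a difference, and no fold is given. In the fit of all names without a filter its limma adjusted p was 0.0123 and 0.0102. All its CK values lay above 6.25, the highest of the smallest PC values above 0 in the libraries. Without CK replicate 1, 2 or 3 it no longer met the filter and had no test. PC-5p-81557_56, of 24 nt, was at 31.8, 17.98 and 27.7 in CK, 7.88, 0 and 0 in DS, and 18.4, 12.8 and 22.2 in RW. DS lay below both other groups, and RW overlapped CK. The log2 difference of PC-5p-81557_56 was -3.66 ± 0.85 (SE) in DS vs. CK with a limma adjusted p of 0.0282, and -3.15 in DS vs. RW, where the adjusted p of 0.0995 did not pass. As 2 of its DS values were listed at 0, the size of the difference from CK depended on the pseudocount, at -4.32 with 0.5 and -2.14 with 5, and was -2.07 with low values set to 4.21. The first call was lost when any single CK library was left out (adjusted p 0.0933 to 0.140), without DS replicate 2 or 3 (0.0685 and 0.0803), and without RW replicate 1 or 3 (0.0570 and 0.0585), and DS vs. RW was called without DS replicate 1 (0.00731).

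Besides these, PC-5p-48480_111, PC-3p-97186_44 and PC-5p-109732_37 had an unadjusted p below 0.05 for lower values in DS vs. CK and did not pass (limma adjusted p 0.0687, 0.234 and 0.238). With PC-3p-78936_58 and PC-5p-81557_56 these made 5 of the 33 lower at an unadjusted p below 0.05, and 1 was higher, where 11.2% and 8.26% of all tested names were. Among the 5, the filter had fixed the direction of PC-3p-78936_58, PC-5p-48480_111 and PC-3p-97186_44. PC-5p-109732_37, of 24 nt, was at 23.5, 8.06 and 8.55 in CK, 7.88, 0 and 0 in DS, and 0, 0 and 7.40 in RW. PC-3p-39042_145, from the same transcript, had a log2 difference of -0.03 ± 0.47 (SE) in DS vs. CK. PC-5p-48480_111 was called in a fit of CK and DS alone (limma adjusted p = 0.0342). It had met the filter of that fit through CK alone. It was also called without RW replicate 2 (limma adjusted p = 0.0227). There it had met the filter through CK and RW, with 0 in all DS libraries. As the filter had fixed its direction in both fits, neither value is support for a difference. The abundant strand of its transcript, mtr-miR2118, was at 17570 to 42588 in CK, 26644 to 57559 in DS, against 17840 to 57401 in RW. The groups of mtr-miR2118 overlapped.

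In RW vs. CK, limma called 0 of the 33 names higher and 2 lower, where 2.95% and 2.36% of all tested names were called. The 2 again include PC-3p-78936_58, whose direction the filter had fixed. The median log2 difference was -0.05 over the 33 names and -0.11 over all. It was -0.83 for the 11 names of 21 nt, with -0.28 for the matched names of that length, and 0.18 for the 19 names of 24 nt, with -0.02. RW lay above CK without overlap for 3 names and below it for 5, with 10.3% and 10.9% of all tested names. For the matched names these shares were 8.70% and 5.22% at 24 nt, and 2.75% and 13.8% at 21 nt. The 3 names above CK, PC-3p-112962_35, PC-5p-19253_324 and PC-3p-61527_82, were all of 24 nt and did not pass the test. Of the 5 below, 3 were of 21 nt, namely PC-5p-400_9674, PC-3p-905_4408 and PC-3p-78936_58, and 2 of 24 nt, PC-5p-21436_288 and PC-5p-109732_37. At an unadjusted p below 0.05 limma had 4 of the 33 lower in RW and 0 higher, with 8.85% and 6.78% of all tested names. PC-5p-109732_37, the fourth besides PC-5p-400_9674 and the 2 that passed, had a limma adjusted p of 0.298.

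PC-5p-21436_288, from the transcript with a miR398 name, was called in RW vs. CK besides PC-3p-78936_58. It was at 21.4, 41.5 and 132 in CK, 29.96, 8.43 and 42.8 in DS, and 9.20, 0 and 0 in RW. CK and DS overlapped, and RW lay below CK in every library. The log2 difference RW vs. CK was -4.53 ± 1.03 (SE) with a limma adjusted p of 0.0274, and DS vs. RW, at 3.43 ± 1.03, did not pass (limma adjusted p = 0.143). With 2 RW values listed at 0, the difference from CK was -5.21 with a pseudocount of 0.5, -2.96 with 5 and -2.94 with low values set to 4.21. The call was lost without CK replicate 1, 2 or 3 (adjusted p 0.0540, 0.0893 and 0.113) and without RW replicate 2 or 3 (0.107 and 0.124). The matched strand nta-miR398_L+2R-2 was at 5.48, 0 and 5.28 in CK and listed at 0 in all other libraries.

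**Figure D4:**
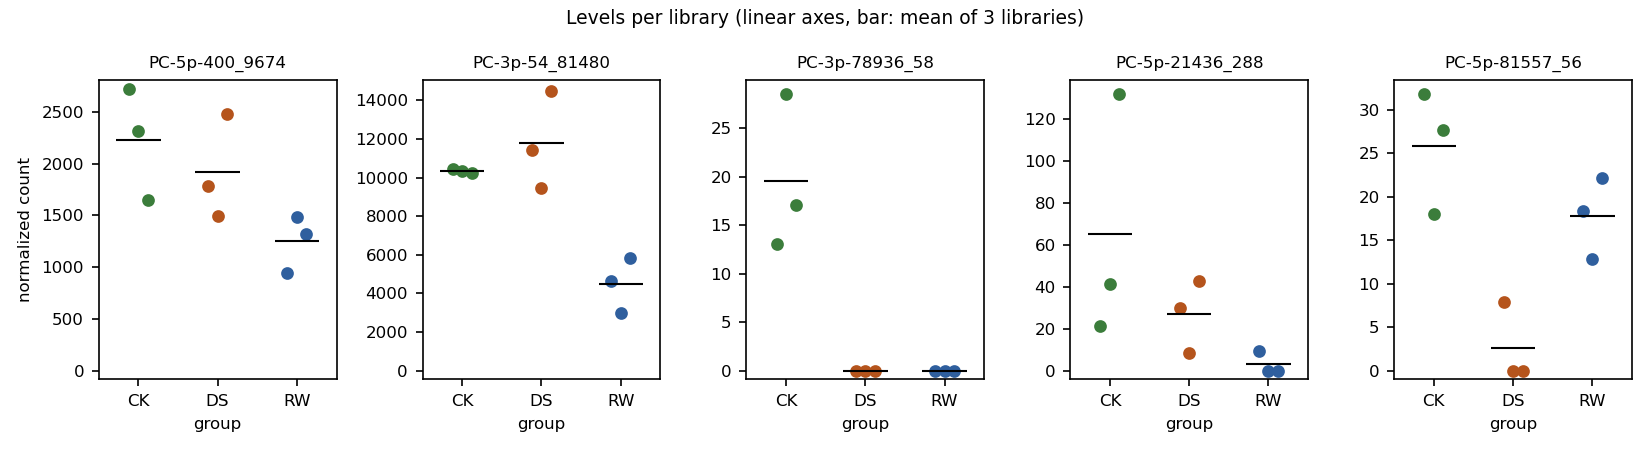
Normalized counts (linear y axes, 1 scale per panel) of PC-5p-400_9674, of its hairpin partner PC-3p-54_81480 and of the 3 PC names called by limma, by group (x axis). Points are libraries and bars are means of 3. PC-3p-78936_58 is at 0 outside CK, PC-5p-21436_288 is at 0 or 9.20 in RW, and PC-5p-81557_56 is at 0 or 7.88 in DS.

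In DS vs. RW, limma called 0 of the 33 names, where 0.885% of all tested names were called higher and 1.47% lower. At an unadjusted p below 0.05 there were 7, of which 2 were higher and 5 lower in DS, with 5.60% and 8.55% of all tested names. The 2 higher were PC-3p-102950_40 and PC-5p-21436_288. The 5 lower were PC-5p-81557_56, PC-3p-106541_38, PC-3p-61527_82, PC-5p-48480_111 and PC-5p-19253_324, and 4 of them were of 24 nt, as were 19 of the 33 names tested. The filter had fixed the direction of PC-3p-102950_40 and of PC-5p-48480_111. PC-3p-61527_82 was at 4.70, 9.92 and 5.53 in CK, 0, 0 and 10.7 in DS, and 14.7, 12.8 and 14.8 in RW, so that RW lay above all other libraries. Its limma adjusted p was 0.215, and 0.0394 without DS replicate 3. PC-3p-106541_38, which shares 17 bases with PC-3p-15383_407, was at 18.3, 3.72 and 9.56 in CK, 17.3, 0 and 0 in DS, and 20.3, 26.6 and 8.64 in RW, with a limma adjusted p of 0.281, and 0.0223 without DS replicate 1. Without DS replicate 1, limma called 3 names lower in DS vs. RW, namely PC-5p-81557_56, PC-3p-106541_38 and PC-3p-112962_35.

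The median log2 difference in DS vs. RW was -0.61 over the 33 names and -0.16 over all. It was 0.16 for the names of 21 nt, with -0.01 for the matched names, and -0.92 for those of 24 nt, with -0.40. DS was above RW without overlap for 3 names (PC-5p-400_9674, PC-5p-39746_142 and PC-3p-102950_40) and below it for 3 (PC-3p-61527_82, PC-5p-81557_56 and PC-5p-19253_324), with 6.19% and 9.14% of all tested names. None of the 3 above was of 24 nt, and all of the 3 below were, but both counts are near the shares of all tested names. For the matched names of 24 nt these shares were 2.61% above and 10.4% below, and no test between lengths was made. The comparisons with CK share the CK libraries, and those with DS or RW share theirs, so that their values are not independent of each other.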

How the data were processed

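Small RNA libraries of 9 leaf samples (3 each of CK, DS and RW) were used, grouped by their labels. The authors filtered the reads with ACGT101-miR and named the small RNAs (18 to 25 nt) by comparison with miRBase 22.0 and their own transcript assembly. The deposited values are a signal, normalized counts per name, and the choice of each library's factor is not stated by the labels or the paper. The 62 names and the lists were chosen with earlier results of these data known.

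Repeated lines of a name were dropped (667 lines, 595 names). Names with at least 5 normalized counts in at least 3 libraries were tested on log2 (value + 1) with limma 3.58.1 (R 4.3.3, mean-variance trend, 1 fit of 3 groups), with Benjamini-Hochberg adjustment over all 339 names of a comparison. An adjusted p below 0.05 was called. Sums and counts were compared with 2-sided exact permutation tests (scipy 1.17.1), in which 3 against 3 libraries cannot go below 0.1. Mature strands of the same transcript were folded with RNAduplex 2.7.2. Base pairs come from these strands alone, as the precursor sequences were not used here. The matched partner of 1 PC name is not reported here. Names given singly are those that passed, those with an unadjusted p below 0.05, the 6 highest of 21 nt and of 24 nt, those of other lengths, those above 0 in all of 1 group and at 0 in all of another, and those of overlapping sequence. Other names are given where a partner or a count of 5 or fewer needs them, and were chosen after their values were seen. Other scalings, pseudocounts, filters, merged sequences and fits without single libraries were tried.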

Additional observations from a re-analysis of the deposited data

How the results depend on the processing

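The counts of called PC names (2 in DS vs. CK, 2 in RW vs. CK and 0 in DS vs. RW) were the same with median-of-ratios scaling, with scaling to the table total, with pseudocounts of 0.5 and 5, with every low value set to the level of 4.21, with names of the same sequence merged, and in fits of only the groups compared, and in these PC-5p-21436_288 remained called in RW vs. CK. PC-3p-78936_58 was called in them too, but had met their filter through CK alone. Without a filter 62 names were tested and the counts were 3, 3 and 0, with PC-5p-233212_12 added and PC-3p-78936_58 called (limma adjusted p = 0.0123 and 0.0102), and with a minimum of 20 they were 1, 1 and 0, as PC-3p-78936_58 was not tested. Leaving out each library in turn gave 0 to 4 names in DS vs. CK, 0 to 3 in DS vs. RW and 0 to 2 in RW vs. CK. With any single CK library left out no PC name was called in either comparison with CK, and PC-3p-78936_58 was then not tested, as it reached 5 in only 2 libraries. PC-5p-81557_56 was not called in a fit of CK and DS alone (limma adjusted p = 0.0783). The names called in that fit, PC-3p-78936_58 and PC-5p-48480_111, had both met its filter through CK alone. Same-numbered libraries did not deviate together (correlations of -0.154 to 0.058), and a replicate block left the counts at 2, 2 and 0. Signs reversed for sums only. Without PC-5p-400_9674, an alternative added after seeing the data, DS minus RW became -0.00826 percentage points for all PC names and -0.00731 for the 5p names. Leaving out single libraries, RW minus CK of the 24 nt names ranged from -2e-05 to 0.00622 and DS minus RW of the 3p names from -0.00911 to 0.00376. The other values kept their sign. A count test on recovered reads, in edgeR or DESeq2, was not run, because the deposited values are not counts and what 1 read is worth in each library was not established. The 3 libraries per group and the high lowest values of DS limit what could be seen of rare names.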

Other observations

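The number at the end of a PC name is not explained in the sources used here. It was set beside the sum of a name over the 9 libraries, counted in pairs of the library's steps. The sum equalled the number for 12 of the 62 names, lay above it for 46 and below it for 4. The 4 below were PC-3p-905_4408, PC-5p-9773_636, PC-5p-133377_27 and PC-3p-233392_12, all of 21 nt.

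PC-5p-19253_324 and PC-3p-15383_407 lay on 1 transcript and were listed in all libraries. They formed 14 base pairs with each other, fewer than the 15 used above. Their ratio was between 0.554 and 0.649 in CK, between 0.265 and 0.653 in DS, and between 0.643 and 1.27 in RW. The exact permutation tests of this ratio (2-sided) gave p = 0.4 for DS vs. CK and 0.2 for DS vs. RW and for RW vs. CK.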
